A study of Mus musculus with 12 samples.

Results

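The response of wild-type (WT) macrophages to lipopolysaccharide (LPS) was read from 6 of the 12 RNA-seq samples of the series, which were 3 WT samples with media control (untreated, UT) and 3 WT samples with LPS. These samples were selected by their labelled genotype and treatment, with no measured value involved. The cells were bone marrow-derived macrophages (BMDMs), which are macrophages grown from marrow precursors in culture. They came from C57BL/6J mice, and the study's methods name male mice of 8 weeks. The other 6 samples were BMDMs from cGAS-/- mice of the same background, 3 UT and 3 with LPS, and are used below only beside the WT values. LPS was from Escherichia coli. The sample labels give 100 ng/mL for 1 h, whereas the methods give 150 ng/mL for 24 h, so the dose and the time of these samples are uncertain. The growth text names cGAS knockout mice for all samples and the extraction text names neutrophils, although the genotype and cell type labels say WT and macrophage. In the study's legend the triplicates are named technical replicates, and the p-values below therefore measure only the spread between these samples.

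LPS is a component of the outer membrane of Gram-negative bacteria. It is handed to TLR4 and its partner MD-2 on the macrophage surface, from where the adaptor MyD88 leads to NF-kB, MAP kinases and the first inflammatory genes, and the adaptor TRIF leads from endosomes to IRF3 and interferon beta. Interferon beta then acts back on the cell through its receptor and the STAT factors and switches on the interferon-stimulated genes. Hours later, LPS-stimulated macrophages make acute phase proteins, prostaglandin and nitric oxide enzymes, while genes of resting macrophages and of cell division are commonly lowered.

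The deposited values were taken as transcript abundance scaled for length and library (TPM), with 1 mean per gene symbol over its transcripts, so levels are compared between samples and not between genes. The table covers chromosomes 1 to 12 and part of chromosome 13, and genes beyond that, such as Tnf, were not analysed here. A gene was tested where it reached 1 TPM in at least 3 of the 6 samples, which held for 8926 of 38739 genes. Fold changes are differences of log2(TPM + 1) between the LPS and the UT means, which understates the change of low genes. P-values are from limma, adjusted over the 8926 genes by the Benjamini-Hochberg method. In what follows a gene rose or fell where its adjusted p was under 0.05, and was called higher or lower where its log2 fold change was also beyond 2.

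LPS replicate 3 stood apart from the other samples. The correlation over genes of log2(TPM + 1) was 0.967 to 0.973 between UT samples and 0.909 between LPS replicates 1 and 2, but 0.756 and 0.794 between replicate 3 and these. Its values summed to 709802, against 447189 to 495130 in the other 5 samples. Protein-coding genes took 18.5% of that sum, compared with 49.9% and 54.5% in the other LPS samples and 43.5% to 44.4% in the UT samples. The ferritin pseudogene Fth-ps3 alone took 31.7%, compared with 10.6% and 15.5% in the other LPS samples and 6.24% to 6.66% in the UT samples. Therefore, results below are also given without replicate 3 ("without 3").

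Transcripts of the macrophage genes Cd68 and Lyz2 were high in all 6 samples. The median level of 54 macrophage identity genes was 113 to 121 TPM in UT and 58.8, 96.2 and 29.1 TPM with LPS. Cd68, a lysosomal protein of macrophages, was at 973 to 1040 TPM in the UT samples and at 415, 506 and 153 TPM with LPS. Lysozyme 2 (Lyz2), 40.7% of whose sequence is shared with Lyz1, was at 15700 to 26400 TPM throughout. Cgas, the gene deleted in the other genotype, was at 2.67, 2.89 and 2.68 TPM in the UT samples and at 1.19, 2.88 and 3.25 TPM with LPS, so the groups overlapped. In the 6 cGAS-/- samples it was at 0.0703 to 0.291 TPM.

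With LPS, 214 genes rose and 713 fell, which is 2.40% and 7.99% of the 8926 tested. Among these, 151 genes were called higher (1.69%) and 283 lower (3.17%). Without replicate 3, 500 genes rose (5.60%) and 1331 fell (14.9%), and 195 were called higher and 209 lower. In all 214 genes that rose and all 713 that fell, the 3 LPS values lay beyond the 3 UT values, as they did for 3786 of all tested genes (42.4%). Of these 3786, 523 were higher and 3263 lower with LPS, so a lack of overlap was far more common among falls. Of the 214 that rose and the 713 that fell, 209 and 685 passed in the same direction without replicate 3, and all kept their sign.

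The balance of rises and falls depended on scaling. The median log2 fold change of all tested genes was -0.58, and only 21.7% of genes lay above 0. The median was -0.34 without replicate 3 and 0.00 after TMM scaling, which sets the bulk of genes level between samples. With TMM, 348 genes rose (3.90%) and 398 fell (4.46%). The share of higher genes among those called was 34.8% as deposited, 48.3% without replicate 3, 69.5% with TMM and 63.5% with quantile normalization. Gene lists are therefore described beside the median of all genes, which moves by 0.58 with TMM. The counts of each list below stand beside the same shares of all tested genes, which are 2.40% for rises and 7.99% for falls with the 6 samples, 5.60% and 14.9% without replicate 3, and 3.90% and 4.46% with TMM. Of the 214 genes that rose 176 passed with TMM, and of the 713 that fell 397 did. No gene of either set changed sign.

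**Figure D1:**
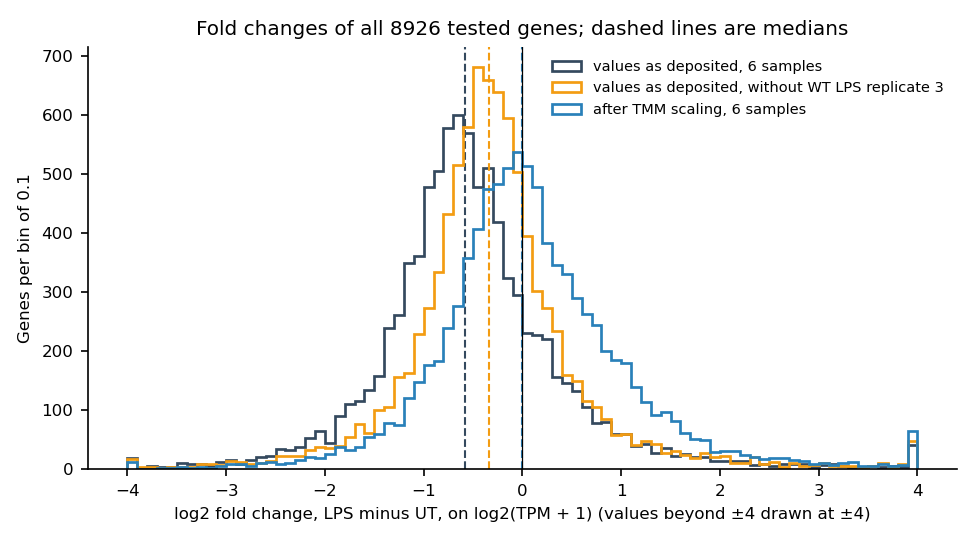
Histogram of the log2 fold change (LPS minus UT, on log2(TPM + 1)) of the 8926 tested genes, in bins of 0.1 with values beyond 4 drawn at the edge. The curve of the deposited values has its median (dashed line) at -0.58, the one without LPS replicate 3 at -0.34, and the one after TMM scaling at 0.00.

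**Figure D2:**
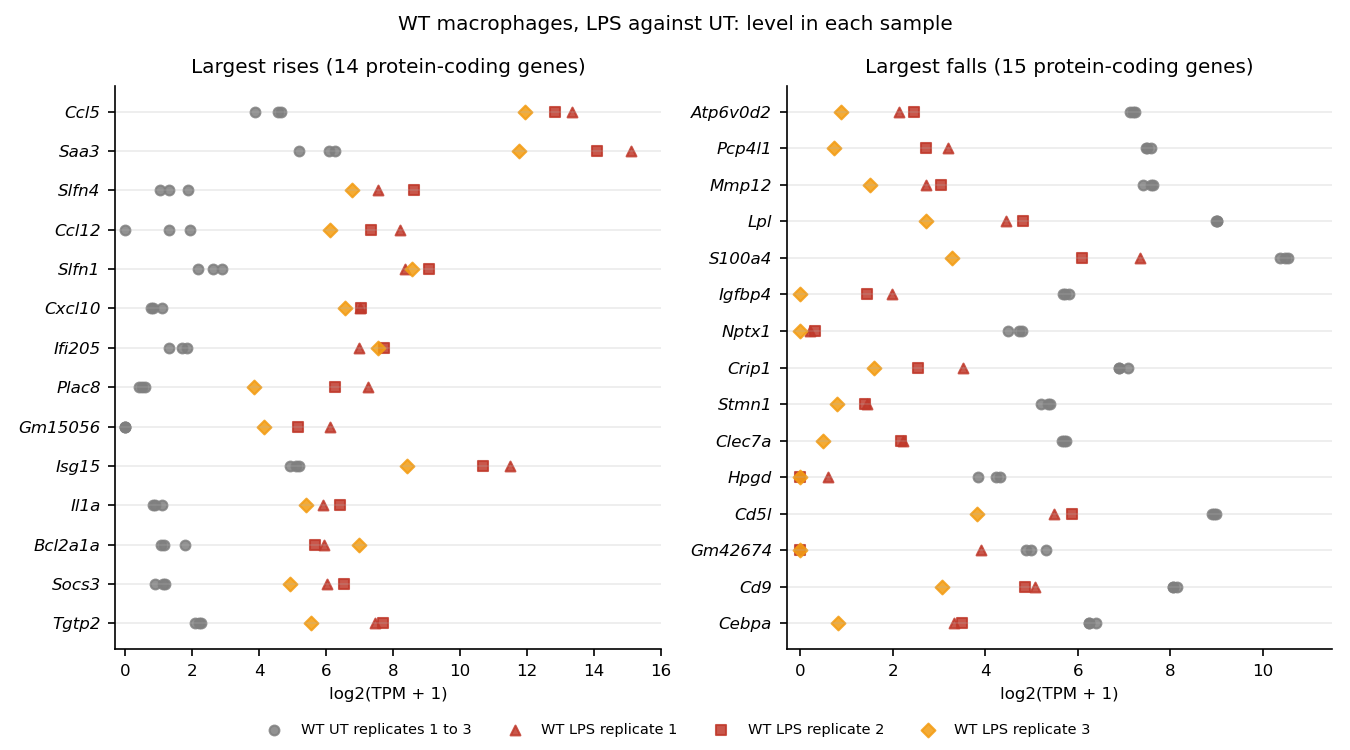
Level of 14 of the 15 top rising and of the 15 top falling protein-coding genes, as log2(TPM + 1) in each WT sample. Grey circles are the 3 UT samples and coloured symbols the LPS replicates, and LPS replicate 3 (diamonds) lies lowest of the LPS samples at most of these genes, including Ccl5 (3960 TPM, against 10500 and 7330) and Atp6v0d2 (0.833 TPM, against 3.39 and 4.51).

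Of 21 tested genes of the LPS receptor and its signal chain, 1 rose and none fell (limma, adjusted p under 0.05), beside 2.40% and 7.99% of all tested genes. Without replicate 3, 4 rose and none fell, beside 5.60% and 14.9%. The median of the list was -0.09, which is 0.49 above that of all genes, and it was 0.19 without replicate 3 and 0.74 with TMM, so its sign depended on scaling. The 1 gene was Irak3, an inhibitor of the MyD88 branch, at 4.63, 4.22 and 4.31 TPM in UT and 17.4, 39.5 and 13.3 TPM with LPS. All LPS values lay above the UT values, with a log2 fold change of 2.03 (limma adjusted p = 0.0337, standard error 0.48), or 2.34 without replicate 3. Tlr4, the receptor itself, was at 15, 14.2 and 12.3 TPM in UT and at 8.12, 13.8 and 1.3 TPM with LPS. These groups overlapped, and the log2 fold change of -1.12 (-0.34 without 3) did not pass. Its partner Ly96 (MD-2) was at 17.7 to 22.3 TPM in UT and at 42.0, 29.5 and 8.66 TPM with LPS, with replicate 3 below and the other LPS samples above the UT values, and did not pass with or without replicate 3 (limma adjusted p = 0.834 and 0.0534). The adaptor Myd88 was at 20.1 to 22.2 TPM in UT and at 42.3, 54.5 and 106 TPM with LPS, a log2 fold change of 1.52 that did not pass (limma adjusted p = 0.083) but passed at 1.14 without replicate 3 (0.0117).

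Among 15 tested NF-kB subunits and inhibitors, 2 rose and none fell, and 5 rose without replicate 3. Nfkbia encodes IkB-alpha, which holds NF-kB in the cytoplasm and is itself an NF-kB target. It was at 36.4, 30.8 and 28.6 TPM in UT and at 144, 136 and 86.2 TPM with LPS. Each LPS value was more than the highest UT value, with a log2 fold change of 1.87 (limma adjusted p = 0.0303, standard error 0.43) and 2.10 without replicate 3. Traf1, an adaptor of TNF receptors, went from 2.34, 3.47 and 2.57 TPM to 7.45, 11.1 and 19.3 TPM. Here replicate 3 was the highest sample, and the log2 fold change was 1.76 (limma adjusted p = 0.0413) and 1.43 without it, but the call was lost with TMM (adjusted p = 0.0658). Tnfaip3, the ubiquitin editor A20, was at 3.15 to 3.18 TPM in UT and at 5.40, 10.7 and 8.72 TPM with LPS, and did not pass (limma adjusted p = 0.114) except with TMM (0.0486), with a log2 fold change of 1.05 and an adjusted p of 0.0535 without replicate 3. The subunit Nfkb1 was at 6.97 to 8.39 TPM in UT and at 4.49, 11.3 and 2.88 TPM with LPS, with overlapping groups and a log2 fold change of -0.43 (-0.07 without 3).

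Of 26 immediate early and stress factors, none rose and 4 fell, with a median of -0.66 beside -0.58 for all genes. Without replicate 3, 3 rose and 6 fell, and with TMM 1 rose and 1 fell, beside 3.90% and 4.46% of all tested genes, so the counts with TMM were near those of all genes. The median was -0.13 without replicate 3 and 0.09 with TMM. Bhlhe40, a transcriptional repressor, was at 5.08, 7.21 and 6.17 TPM in UT and at 1.05, 1.09 and 0.160 TPM with LPS. The groups did not overlap, and it fell by 2.06 on the log2 scale (limma adjusted p = 0.0112), or -1.78 without replicate 3. The zinc finger factor Egr2 (-1.64, and -1.30 without 3), the AU-rich mRNA binding protein Zfp36l1 (-1.64 and -1.52) and the DNA damage gene Gadd45a (-2.31 and -1.66) fell as well, but lost the call with TMM. Gadd45a shares 44.3% of its sequence with another transcript. The AP-1 genes did not pass. Fos was at 49.5, 51.6 and 42.5 TPM in UT and at 15.3, 24.4 and 4.14 TPM with LPS (log2 fold change -1.92, limma adjusted p = 0.088), and passed at -1.26 without replicate 3. Jun was at 129 to 133 TPM in UT and at 78.9, 132 and 28.7 TPM with LPS, so that replicate 2 lay within the UT values (-0.96, and -0.36 without 3). Junb was at 64.1 to 72.9 TPM in UT and at 118, 155 and 31.5 TPM with LPS, and did not pass with the 6 samples, but rose without replicate 3 (0.97, limma adjusted p = 0.0189). Atf3 was at 167 to 183 TPM in UT and at 52.7, 112 and 31.6 TPM with LPS, a log2 fold change of -1.6 (limma adjusted p = 0.096), or -1.18 without replicate 3 (0.0515).

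Among 15 tested cytokines and growth factors, 5 rose and 1 fell, and 10 rose and 3 fell without replicate 3. The median was 1.05 (1.43 without replicate 3), which is 1.63 above that of all genes. The IL-1 family led this list. Il1a, which encodes the cell-bound alarmin IL-1 alpha (chromosome 2 of GRCm39, 129140291 to 129152098), was at 1.15, 0.793 and 0.836 TPM in UT and at 58.9, 84.9 and 41.4 TPM with LPS. All LPS samples were well above the UT samples, with a log2 fold change of 4.97 (limma adjusted p = 0.00212, standard error 0.42) and 5.22 without replicate 3. Il1b, the secreted pyrogen that is cleaved by caspase-1, went from 6.21, 4.08 and 2.17 TPM to 127, 156 and 45.4 TPM. The LPS values lay far above the UT values, by 4.33 on the log2 scale (limma adjusted p = 0.00432, standard error 0.59) and 4.86 without replicate 3. Il1rn, which encodes the receptor antagonist that blocks both, went from 16.5, 17.1 and 15.6 TPM to 156, 298 and 540 TPM. In contrast with the agonists, replicate 3 was the highest sample here, and the log2 fold change of 4.08 (limma adjusted p = 0.00384) became 3.64 without it.

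Interferon beta (Ifnb1, chromosome 4, 88440262 to 88441011) was at 0, 0.301 and 0 TPM in UT and at 8.43, 7.21 and 9.60 TPM with LPS. The 3 LPS samples agreed closely, replicate 3 included, with a log2 fold change of 3.10 (limma adjusted p = 0.00234, standard error 0.31) and 3.01 without replicate 3. Spp1, the phosphoprotein osteopontin, fell from 494, 535 and 521 TPM to 110, 137 and 36.4 TPM, a log2 fold change of -2.64 (limma adjusted p = 0.0208) and -2.06 without replicate 3. Il10, the anti-inflammatory cytokine, was at 5.07 to 6.56 TPM in UT and at 24, 29.1 and 6.78 TPM with LPS. Replicate 3 sat just above the UT samples, and the log2 fold change of 1.42 did not pass (limma adjusted p = 0.151), whereas it was 2.02 without replicate 3 and passed (0.00215). With TMM, Il10 passed with all 6 samples (2.16, limma adjusted p = 0.01). Il6 stayed under the filter, at 0.0458 to 0.134 TPM in UT and at 1.07, 0.772 and 0.559 TPM with LPS. Il12b was listed at 0 in all 6 samples, and Il12a was at 0.293 TPM at most.

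Chemokines had the highest median of the lists of the response. Of 19 tested, 10 rose and 1 fell, with a median of 2.73 and of 3.51 without replicate 3, and 14 rose without replicate 3. Ccl5 (RANTES, chromosome 11, 83416602 to 83425942), which attracts T cells and monocytes, was at 22.5, 13.6 and 24.1 TPM in UT and at 10500, 7330 and 3960 TPM with LPS. Its log2 fold change of 8.36 (limma adjusted p = 0.000692, standard error 0.49) was the largest of the named genes with all 6 samples, and was 8.74 without replicate 3. Cxcl10 (IP-10, chromosome 5, 92494497 to 92496748), a CXCR3 ligand induced by interferons, was at 0.781, 0.717 and 1.12 TPM in UT and at 127, 131 and 93.8 TPM with LPS. The LPS samples lay close together, and the log2 fold change was 5.97 (limma adjusted p = 0.000988, standard error 0.40), or 6.13 without replicate 3.

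The monocyte attractants of the CCR2 family rose together. Ccl12 went from 0, 1.47 and 2.82 TPM to 297, 163 and 69.1 TPM (log2 fold change 6.16, limma adjusted p = 0.00255; 6.71 without 3). Ccl7 went from 19.8, 21.2 and 20.4 TPM to 1220, 1000 and 95.4 TPM (4.51, limma adjusted p = 0.0176, and 5.69 without 3), and Ccl2 from 21.9, 25.4 and 23.9 TPM to 722, 555 and 171 TPM (4.06, limma adjusted p = 0.00537, and 4.68 without 3). Replicate 3 was the lowest LPS sample at each of them, and above every UT sample. The neutrophil attractant Cxcl1 rose from 1.35, 2.10 and 1.35 TPM to 21.0, 30.9 and 4.4 TPM, with a log2 fold change of 2.60 (limma adjusted p = 0.0403) and 3.36 without replicate 3. Its neighbour Cxcl2 was at 4.75, 2.50 and 2.59 TPM in UT and at 41.3, 27.5 and 5.51 TPM with LPS. It passed without replicate 3 (log2 fold change 3.06, limma adjusted p = 0.00231) but not with the 6 samples as deposited (0.078). With TMM, Cxcl2 passed with all 6 samples (2.95, limma adjusted p = 0.0206). Ccl3 was at 540 and 491 TPM in LPS replicates 1 and 2 but at 79.4 TPM in replicate 3, below the UT samples at 81.4 to 90.0 TPM. It passed without that sample, at 2.56 (limma adjusted p = 0.000584), and with TMM (0.031). Cxcl14 fell by 1.72 (limma adjusted p = 0.0317; -1.45 without 3), from 9.97 to 11.5 TPM in UT to 1.40 to 3.6 TPM with LPS.

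Interferon-stimulated genes made up the largest group of rises. Of 78 tested, 42 rose and 1 fell, and 69 rose and 1 fell without replicate 3. The median was 2.07 (2.43 without replicate 3 and 2.83 with TMM), and 75 of the 78 lay above 0, compared with 21.7% of all genes. By family, the symbols starting with Gbp gave 5 rises among 6 tested (median 3.22), the immunity-related GTPases 5 among 6 (3.35), the Ifi200 genes 6 among 9 (3.56), the oligoadenylate synthetases 4 among 8 (2.29), the Schlafen genes 2 among 7 (1.31) and the Ifitm genes 1 among 4 (1.67). Trim30 and its relatives gave none among 4 (median 0.72, lowest -0.62), and the 1 Parp gene tested, Parp12, did not pass (1.04). Without replicate 3, these counts were 6, 6, 8, 7, 5, 4, 3 and 1.

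Isg15 (chromosome 4, 156283883 to 156285303), a ubiquitin-like modifier, was at 33.5, 29.3 and 35.3 TPM in UT and at 2870, 1660 and 341 TPM with LPS. Replicate 3 was far below the other LPS samples and far above the UT samples, and the log2 fold change was 5.13 (limma adjusted p = 0.0053, standard error 0.74), or 6.02 without replicate 3. The transcript Gm9706 shares 61.6% of the sequence of Isg15, so the split of reads between them is uncertain. Rsad2 (chromosome 12, 26492745 to 26506451), which encodes the antiviral enzyme viperin, went from 4.31, 4.56 and 4.28 TPM to 86.7, 214 and 43.6 TPM. Its groups did not overlap, with a log2 fold change of 4.13 (limma adjusted p = 0.00528) and 4.67 without replicate 3.

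The Schlafen genes Slfn4 and Slfn1, which are linked to growth arrest and interferon responses in myeloid cells, showed the largest rises of this list. Slfn4, 29.6% of which is shared with Slfn3, went from 2.68, 1.49 and 1.04 TPM to 188, 395 and 108 TPM (log2 fold change 6.24, limma adjusted p = 0.00234, and 6.69 without 3). Slfn1 went from 3.53, 6.42 and 5.09 TPM to 329, 542 and 380 TPM (6.12, limma adjusted p = 0.00116, and 6.17 without 3). Ifi205, a member of the Ifi200 family of DNA-binding proteins, went from 1.49, 2.22 and 2.58 TPM to 126, 210 and 186 TPM (5.80, limma adjusted p = 0.00116, and 5.74 without 3). At Slfn1 and Ifi205, replicate 3 lay between or beside the other LPS samples. Gbp2, a guanylate-binding protein that acts on pathogen vacuoles, rose from 4.93, 4 and 3.45 TPM to 103, 191 and 55.8 TPM, with a log2 fold change of 4.36 (limma adjusted p = 0.00304) and 4.80 without replicate 3. Gbp5, which promotes inflammasome assembly, rose by 3.18 (limma adjusted p = 0.00482; 3.56 without 3), and Oasl1, an oligoadenylate synthetase-like translation inhibitor, by 4.07 (limma adjusted p = 0.00416; 4.59 without 3). Irgm1, a regulator of the immunity-related GTPases, was at 16.1 to 18.3 TPM in UT and at 82.6, 113 and 33.7 TPM with LPS, and passed without replicate 3 (2.40, limma adjusted p = 0.00136) and with TMM, but not with the 6 samples as deposited (0.0579). Tgtp2, a T-cell-specific GTPase whose whole sequence is shared with Tgtp1, had a log2 fold change of 4.72 (limma adjusted p = 0.00373; 5.40 without 3). The tetherin gene Bst2 went from 115, 105 and 125 TPM to 2860, 1290 and 707 TPM (3.58, limma adjusted p = 0.00602, and 4.06 without 3). Against the direction of the list, Ifi27 fell from 19.0, 21.8 and 25.3 TPM to 3.20, 2.48 and 0.194 TPM, a log2 fold change of -3.14 (limma adjusted p = 0.00941) and -2.58 without replicate 3.

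RefSeq promoters (250 bases before to 50 bases after the start, GRCm38.p6) of a few genes that rose are shown because they carry the letters that NF-kB and interferon factors are known to bind. Capitals mark every match on either strand to the NF-kB consensus or to the core of the interferon-stimulated response element (ISRE), which is GAAA, any 2 bases and GAAA again. In all, 6162 of the tested genes had a promoter in the table. The promoters are those of Cxcl10 (chr5:92348840-92349139, minus strand), Isg15 (chr4:156200769-156201068, minus strand), Rsad2 (chr12:26456403-26456702, minus strand) and Nfkbia (chr12:55492598-55492897, minus strand), each written 5′ to 3′ along the gene.
Cxcl10: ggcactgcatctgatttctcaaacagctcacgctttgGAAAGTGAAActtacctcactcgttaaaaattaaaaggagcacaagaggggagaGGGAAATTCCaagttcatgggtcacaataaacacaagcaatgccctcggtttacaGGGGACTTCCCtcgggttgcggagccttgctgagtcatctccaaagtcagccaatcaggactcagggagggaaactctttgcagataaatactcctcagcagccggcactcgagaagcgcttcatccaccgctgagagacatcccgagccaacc
Isg15: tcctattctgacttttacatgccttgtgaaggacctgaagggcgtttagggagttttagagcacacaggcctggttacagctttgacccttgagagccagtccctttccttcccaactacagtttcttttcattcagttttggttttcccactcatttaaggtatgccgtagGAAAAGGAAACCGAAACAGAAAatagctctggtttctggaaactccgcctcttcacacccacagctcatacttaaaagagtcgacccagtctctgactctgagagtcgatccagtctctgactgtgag
Rsad2: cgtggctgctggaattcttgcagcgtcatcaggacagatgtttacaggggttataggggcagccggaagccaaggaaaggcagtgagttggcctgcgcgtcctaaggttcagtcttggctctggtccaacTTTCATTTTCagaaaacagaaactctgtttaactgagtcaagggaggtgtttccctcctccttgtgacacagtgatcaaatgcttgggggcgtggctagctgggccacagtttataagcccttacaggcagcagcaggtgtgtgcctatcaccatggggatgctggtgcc
Nfkbia: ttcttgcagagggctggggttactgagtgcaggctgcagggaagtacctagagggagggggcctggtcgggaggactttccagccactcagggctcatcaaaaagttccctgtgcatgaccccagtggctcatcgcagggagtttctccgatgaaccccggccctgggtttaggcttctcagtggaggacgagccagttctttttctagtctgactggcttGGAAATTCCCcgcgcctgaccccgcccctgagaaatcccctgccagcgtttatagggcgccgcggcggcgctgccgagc
In Cxcl10, the ISRE core began 213 bases before the start, and NF-kB matches began 159, 104 and 103 bases before it, the last pair overlapping. Isg15 held 3 overlapping ISRE cores that began at 78, 72 and 66 bases before the start, Rsad2 held 1 that began at 120 bases, and Nfkbia held 1 NF-kB match that began at 29 bases.

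Across promoters, the ISRE core was found in 19 of 41 promoters of the interferon-stimulated genes that rose (46.3%) and in 31 of 122 of all genes called higher (25.4%). By comparison, 3.57% of the promoters of genes called lower, 3.64% of those of tested genes and 3.44% of all 32851 promoters held it. The NF-kB consensus was in 14.8% of the promoters of genes called higher, 11.2% of those called lower and 10.1% of those tested. Without replicate 3, the ISRE core was in 50.7% of the promoters of the interferon-stimulated genes that rose, 27.8% of those called higher and 4.70% of those called lower, and the NF-kB consensus in 13.6% of those called higher and 10.1% of those called lower. With all samples, AP-1 letters (TGANTCA) were in 17.2%, 6.25% and 5.14%, and the C/EBP consensus in 20.5%, 11.2% and 8.98%, in the same order (18.5% and 5.37%, and 19.8% and 10.1%, in the genes called without 3). These matches are a description of letters in the window and not of binding.

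Among 16 IRF, STAT and SOCS genes, 3 rose and 1 fell, with or without replicate 3, and the median of -0.10 turned to 0.59 with TMM. Irf7, the factor that amplifies interferon production, went from 2.67, 3.76 and 4.44 TPM to 134, 179 and 41.3 TPM (log2 fold change 4.46, limma adjusted p = 0.00414, and 5.09 without 3). Stat2, a subunit of the interferon-activated complex ISGF3, went from 5.64, 5.81 and 5.96 TPM to 21.7, 48.8 and 24.2 TPM (2.17, limma adjusted p = 0.0206, and 2.30 without 3). Socs3, which blocks signalling of IL-6-type cytokines, went from 1.17, 0.845 and 1.26 TPM to 64.6, 91.9 and 29.3 TPM (4.77, limma adjusted p = 0.00239, and 5.23 without 3). Irf1 was at 4.64 to 5.29 TPM in UT and at 7.28, 16.7 and 14.9 TPM with LPS, and Irf8, a factor of myeloid lineages, at 18.8 to 21.0 and at 13.6, 14 and 6.13 TPM. The groups did not overlap for either gene, but neither passed (limma adjusted p = 0.136 and 0.249, and 0.0882 and 0.0939 without 3). Stat4 fell by 1.03 (limma adjusted p = 0.0324; -0.99 without 3) from a level of 1.12 to 1.77 TPM, and lost the call with TMM.

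Among 39 later LPS effector genes, 16 rose and 2 fell, and 26 rose and 2 fell without replicate 3, with medians of 1.41 and 1.97. Saa3 (chromosome 7, 46361422 to 46365576), the acute phase protein serum amyloid A3, was at 76.8, 35.9 and 67.0 TPM in UT and at 35600, 17600 and 3480 TPM with LPS. Replicate 3 lay below the other LPS samples and above all UT samples, and the log2 fold change was 7.80 (limma adjusted p = 0.00234, standard error 0.79), or 8.75 without replicate 3. Lipocalin 2 (Lcn2), which withholds iron from bacteria, rose from 8.71, 3.71 and 3.35 TPM to 126, 93.6 and 49.1 TPM (3.85, limma adjusted p = 0.00455, and 4.23 without 3). The C-type lectin Clec4e (Mincle) and the NAD-consuming enzyme Cd38 rose by 3.90 and 4.05 (4.54 and 4.81 without replicate 3).

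In the prostaglandin pathway, Ptges, the inducible prostaglandin E synthase, went from 0.390, 0.205 and 0.513 TPM to 18.1, 32.5 and 70.8 TPM. Replicate 3 was the highest, and the log2 fold change was 4.71 (limma adjusted p = 0.00255) and 4.21 without it. Ptgs2 (COX-2), which acts one step earlier, was at 0.786, 1.04 and 0.423 TPM in UT and at 9.64, 16.8 and 1.49 TPM with LPS. All LPS values were above the UT values, but the log2 fold change of 2.17 did not pass (limma adjusted p = 0.0791), and it was 2.99 without replicate 3 and passed (0.00215). With TMM, Ptgs2 passed with all 6 samples (2.63, limma adjusted p = 0.0259). Nos2, the inducible nitric oxide synthase, rose from 0.112, 0.0138 and 0.0265 TPM to 5.59, 19.8 and 3.06 TPM (2.97, limma adjusted p = 0.0138, and 3.48 without 3). Its arginine supplier Slc7a2, a cationic amino acid transporter, rose by 1.94 (2.33 without 3). The scavenger receptor Marco rose from 0.563, 0.480 and 0.675 TPM to 9.75, 11.6 and 15.7 TPM (3.06, limma adjusted p = 0.00255, and 2.89 without 3). Of the matrix metalloproteinases, Mmp12 (macrophage elastase) fell from 170, 196 and 191 TPM to 5.59, 7.18 and 1.85 TPM, a log2 fold change of -5.12 (limma adjusted p = 0.00234) and -4.66 without replicate 3, and Mmp10 fell by 1.17 (-1.17 without 3), a call lost with TMM.

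**Figure D3:**
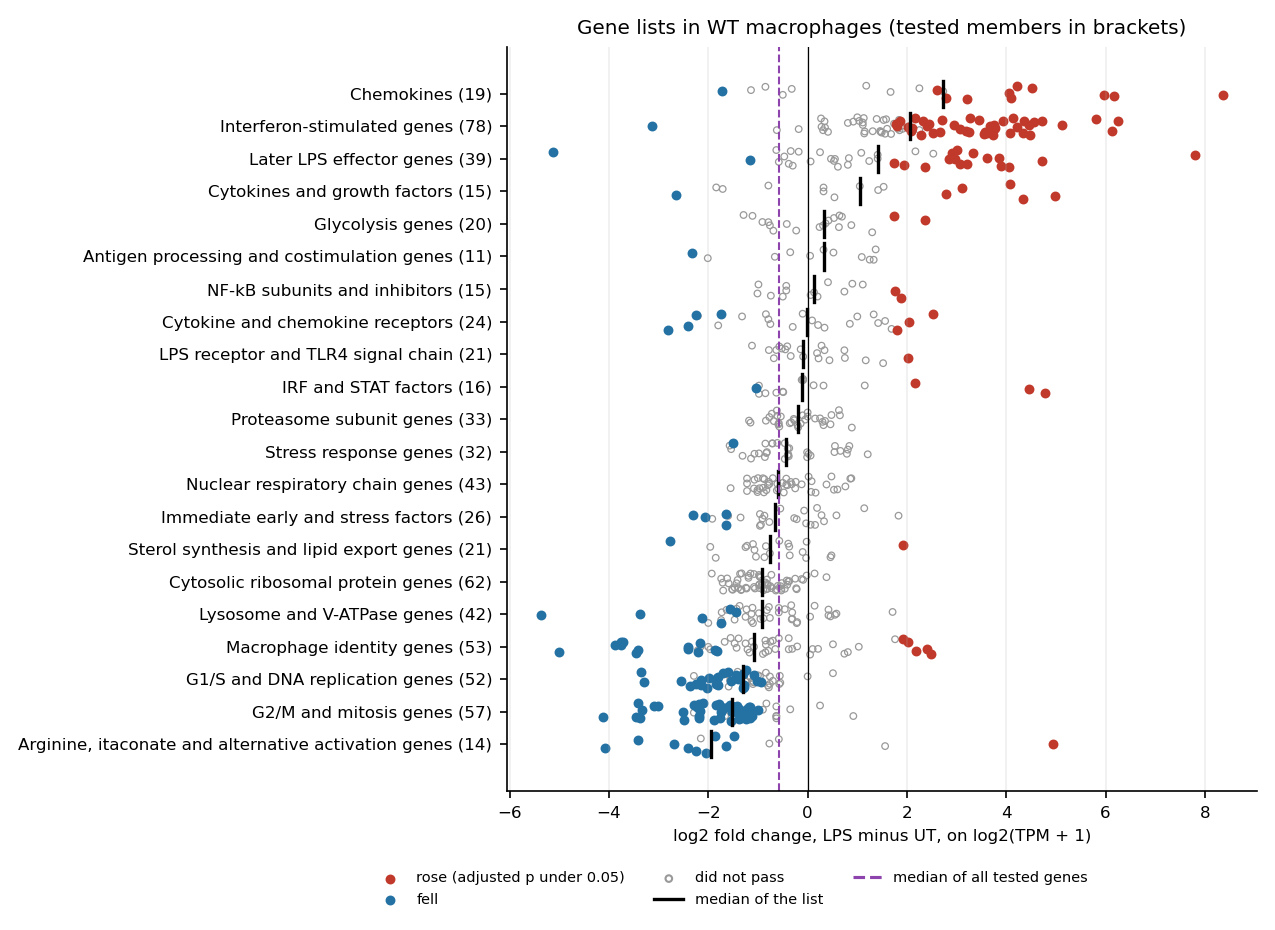
Log2 fold change (LPS minus UT, on log2(TPM + 1)) of the tested members of each gene list, with red and blue points for genes that rose and fell (limma adjusted p under 0.05) and open points for the rest. Black bars are list medians, from 2.73 for chemokines to -1.95 for the alternative activation list, and the dashed line is the median of all tested genes at -0.58.

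**Figure D4:**
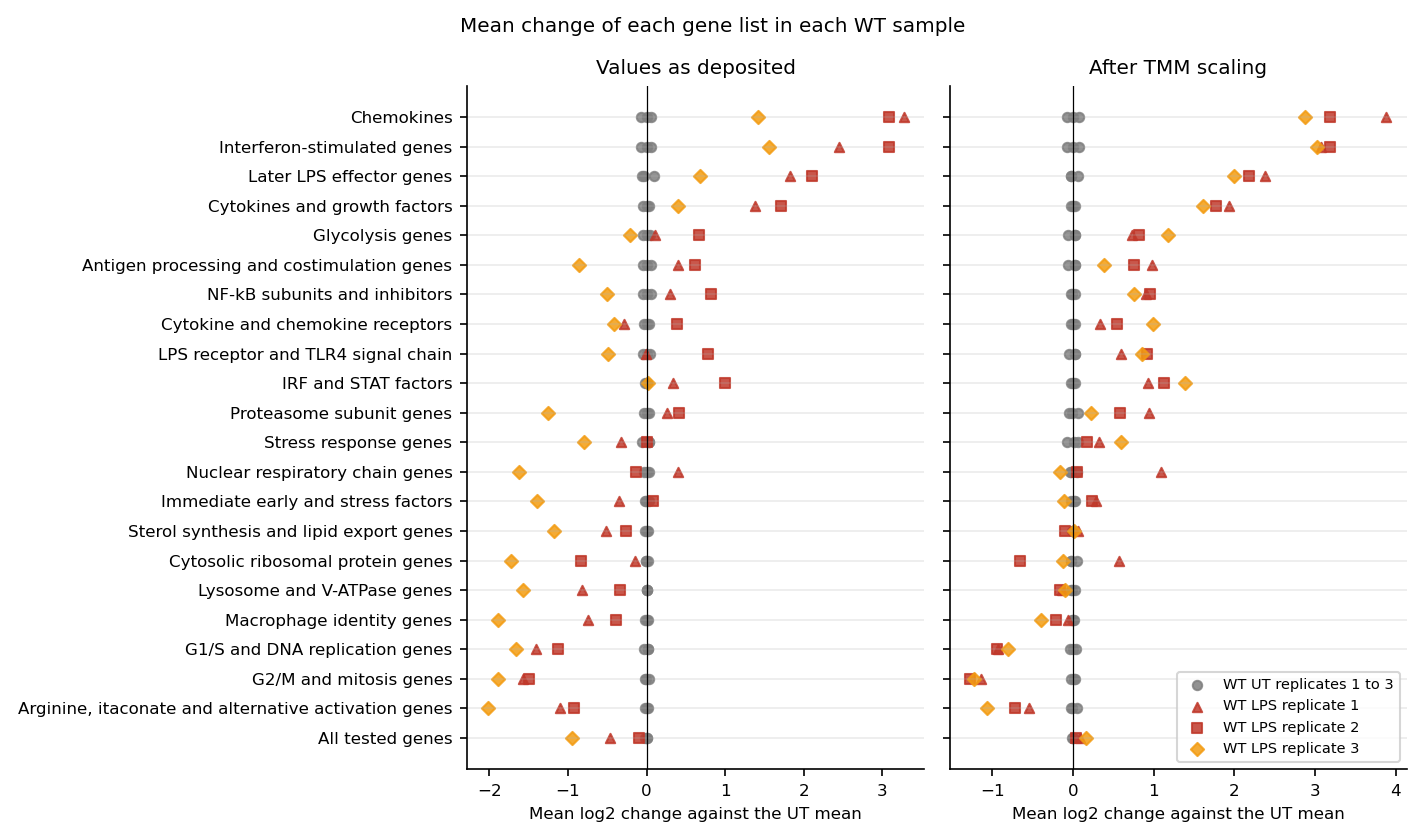
Mean change of the tested members of each list in each WT sample, as the difference of log2(TPM + 1) from the UT mean, for the deposited values (left) and after TMM scaling (right). Interferon-stimulated genes are at 2.45, 3.08 and 1.56 in LPS replicates 1 to 3 as deposited and at 3.07, 3.18 and 3.02 after TMM, and G2/M genes are at -1.57, -1.50 and -1.89 and at -1.14, -1.27 and -1.23.

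The plot of list means by sample shows how LPS replicate 3 relates to the other LPS samples. Over all tested genes, the mean change was -0.46, -0.10 and -0.95 in replicates 1 to 3 as deposited, and 0.09, 0.04 and 0.16 after TMM. For chemokines it was 3.27, 3.09 and 1.42 as deposited and 3.88, 3.18 and 2.87 after TMM. Replicate 3 was thus the lowest LPS sample for chemokines and for interferon-stimulated genes as deposited, and it was the lowest after TMM too, at 3.02 against 3.07 and 3.18 for the interferon-stimulated genes.

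Cytokine and chemokine receptors went both ways. Of 24 tested, 3 rose and 4 fell, or 8 and 7 without replicate 3 and 5 and 4 with TMM, beside the 2.40% and 7.99% of all tested genes that rose and fell (5.60% and 14.9% without 3, and 3.90% and 4.46% with TMM). The median was -0.01 beside -0.58 for all genes, and was 0.07 without replicate 3 and 0.74 with TMM, so its sign depended on the setting. Ccr1, a receptor for Ccl5 and related chemokines, rose from 7.10, 9.69 and 10.4 TPM to 38.8, 47.7 and 95.1 TPM (log2 fold change 2.52, limma adjusted p = 0.0147, and 2.14 without 3). The atypical receptor Ccrl2 (2.04, and 1.63 without 3) and the IL-15 presenting receptor Il15ra (1.79 and 1.49) also rose, but lost the call with TMM. Cxcr4, the receptor for Cxcl12 that holds cells in the marrow, fell from 121, 126 and 119 TPM to 18.3, 24.1 and 10.2 TPM, a log2 fold change of -2.81 (limma adjusted p = 0.00824) and -2.48 without replicate 3. Cx3cr1, the fractalkine receptor, fell from 5.93, 6.69 and 6.23 TPM to 0.157, 0.218 and 0.872 TPM, a log2 fold change of -2.40 (limma adjusted p = 0.00434) and -2.62 without replicate 3. The TGF-beta receptor Tgfbr1 and the complement receptor C5ar2 also fell (-2.25 and -1.75, and -1.86 and -1.44 without 3). Ccr2, the receptor of the monocyte attractants above, was at 6.40 to 6.65 TPM in UT and at 1.66, 2.59 and 6.88 TPM with LPS, so replicate 3 lay just above and the other LPS samples below the UT values. It fell by 1.29 without that sample (limma adjusted p = 0.0112).

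Many genes of alternatively activated macrophages fell. Of 14 tested genes of the arginine and alternative activation list, 9 fell and 1 rose, or 10 and 2 without replicate 3, and 5 fell and 2 rose with TMM. Although its label also names itaconate, the list held no gene of itaconate synthesis. The median was -1.95 (-1.47 without 3 and -1.31 with TMM). The mannose receptor Mrc1 was at 84.3, 85.2 and 73.4 TPM in UT and at 3.85, 6.89 and 10.9 TPM with LPS, a log2 fold change of -3.41 (limma adjusted p = 0.00445) and -3.72 without replicate 3, with an adjusted p of 0.0507 after TMM. Dectin-1 (Clec7a), the receptor for fungal beta-glucan, fell from 52.4, 51.4 and 49.6 TPM to 3.62, 3.50 and 0.395 TPM, a log2 fold change of -4.08 (limma adjusted p = 0.00405) and -3.52 without replicate 3. Pparg, a lipid-sensing nuclear receptor, fell by 2.68 (-2.42 without 3). Ptgs1 (COX-1) fell by 2.41 (-2.76 without 3) and lost the call with TMM. Chil3 (Ym1), 44.0% of whose sequence is shared with another transcript, fell by 2.24 (-1.95 without 3).

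Of 53 tested macrophage identity genes, 13 fell and 5 rose, or 22 and 10 without replicate 3 and 9 and 9 with TMM, beside 7.99% and 2.40%, 14.9% and 5.60%, and 4.46% and 3.90% of all tested genes. The list median was -1.08, which is 0.49 below all genes, and was -0.54 without replicate 3 and -0.28 with TMM. Lipoprotein lipase (Lpl, chromosome 8, 69284603 to 69360100) was at 519, 517 and 507 TPM in UT and at 20.8, 27.3 and 5.6 TPM with LPS, a log2 fold change of -5.01 (limma adjusted p = 0.00274, standard error 0.59), or -4.38 without replicate 3. Cd5l, a secreted scavenger protein of tissue macrophages, fell from 489, 504 and 477 TPM to 43.6, 57.9 and 13.2 TPM, a log2 fold change of -3.88 (limma adjusted p = 0.00595) and -3.26 without replicate 3. The tetraspanin Cd9 fell from 281, 267 and 265 TPM to 32.6, 28 and 7.38 TPM, a log2 fold change of -3.76 (limma adjusted p = 0.00698; -3.12 without 3). Cebpa, a factor that directs myeloid differentiation, fell from 74.9, 83.3 and 74.7 TPM to 8.93, 10.3 and 0.763 TPM, a log2 fold change of -3.75 (limma adjusted p = 0.0142; -2.89 without 3). Within this list, the Fc receptors for IgG Fcgr1 and Fcgr4 rose by 2.48 and 2.19 (3.06 and 2.56 without 3), the scavenger receptor Msr1 by 2.41 (2.96) and the sialoadhesin Siglec1 by 2.03 (2.33). Fcgr1 was at 64.5, 73.4 and 72.7 TPM in UT and at 487, 720 and 176 TPM with LPS. Other genes of this list stayed closer to UT. C1qa, a chain of complement C1q, was at 1730 to 1760 TPM in UT and at 1920, 1860 and 675 TPM with LPS, and C1qb at 3140 to 3270 and at 2860, 2490 and 704 TPM. The myeloid factor Spi1 (PU.1) was at 125 to 144 TPM in UT and at 230, 207 and 60.7 TPM with LPS, so that replicate 3 lay on the other side of the UT values from replicates 1 and 2. Itgam (CD11b), 72.3% of whose sequence is shared with another transcript, was at 43.9 to 47.3 TPM in UT and at 76.2, 157 and 37.1 TPM with LPS. None of these 4 genes passed with all samples as deposited, and Spi1 and Itgam passed without replicate 3 (0.71 and 1.25, limma adjusted p = 0.0305 and 0.0418). With TMM, Itgam passed with all 6 samples (1.57, limma adjusted p = 0.021). Cd68, Apoe and Mertk had log2 fold changes of -1.67, -1.96 and -1.47 that did not pass. Without replicate 3, Cd68 and Apoe fell (-1.15 and -1.07, limma adjusted p = 0.00584 and 0.005), and Mertk did not pass.

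Of 42 lysosome and V-ATPase genes, 6 fell and none rose, or 15 and 3 without replicate 3 and 4 and 2 with TMM, beside 7.99% and 2.40%, 14.9% and 5.60%, and 4.46% and 3.90% of all tested genes. The rises with TMM were near the share of all genes. The median was -0.92, which is 0.33 below all genes, and the mean change of the list was -0.13, -0.16 and -0.10 in LPS replicates 1 to 3 after TMM. The fall was largest in Atp6v0d2 (chromosome 4, 19876838 to 19922614), a V-ATPase subunit typical of macrophages and osteoclasts. It was at 140, 149 and 146 TPM in UT and at 3.39, 4.51 and 0.833 TPM with LPS, a log2 fold change of -5.37 (limma adjusted p = 0.00234, standard error 0.51), or -4.89 without replicate 3. Atp6v0a1, another subunit of the membrane sector, fell from 33.6, 32.2 and 30.9 TPM to 1.79, 6.01 and 0.650 TPM, a log2 fold change of -3.38 (limma adjusted p = 0.00847; -2.91 without 3). The lysosomal hydrolases Man2b1 and Sgsh fell too (-2.13 and -1.75, and -1.6 and -1.53 without 3).

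Many cell division genes fell. Of 57 tested G2/M and mitosis genes, 44 fell and none rose, or 48 and 1 without replicate 3 and 35 and none with TMM. The median was -1.53, compared with -1.37 without replicate 3 and -1.18 with TMM, and only 2 of the 57 lay above 0. Of 52 tested G1/S and DNA replication genes, 27 fell and none rose, or 39 and none without replicate 3 and 20 and none with TMM, with medians of -1.31, -1.21 and -0.89. Fewer dividing cells and less of these transcripts per cell cannot be told apart in bulk samples.

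Mki67 (chromosome 7, 135291513 to 135318299), which encodes the proliferation antigen Ki-67, was at 12.6, 13.3 and 12.3 TPM in UT and at 0.628, 0.937 and 0.555 TPM with LPS. The groups were far apart and replicate 3 lay near the other LPS samples, with a fall by 3.01 (limma adjusted p = 0.00255, standard error 0.34) and -2.95 without replicate 3. Top2a, the topoisomerase that untangles chromosomes, fell from 9.15, 10.6 and 10.2 TPM to 0.278, 0.510 and 0.107 TPM, a log2 fold change of -3.09 (limma adjusted p = 0.00239; -2.98 without 3). Ccnb2, a cyclin of mitotic entry (chromosome 9, 70314966 to 70328874), fell from 13.7, 14.2 and 14.1 TPM to 0, 0.161 and 1.35 TPM, a log2 fold change of -3.42 (limma adjusted p = 0.00312; -3.80 without 3). Birc5 (survivin), which guides chromosome segregation, fell from 13.9, 17.5 and 18.6 TPM to 1.03, 0.575 and 0.285 TPM, a log2 fold change of -3.45 (limma adjusted p = 0.0024; -3.29 without 3). Stmn1, which destabilizes microtubules and shares 21.0% with another transcript, fell from 35.9, 40.0 and 41.4 TPM to 1.71, 1.65 and 0.734 TPM, a log2 fold change of -4.11 (limma adjusted p = 0.00234; -3.90 without 3).

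At the start of the cycle, Ccnd1 (cyclin D1, 59.9% of which is shared with LTO1) fell from 29.6, 33.4 and 33.0 TPM to 2.67, 4.86 and 0.573 TPM, a log2 fold change of -3.35 (limma adjusted p = 0.00741; -2.83 without 3). The ribonucleotide reductase subunits Rrm2 and Rrm1, which make the building blocks of DNA, also fell (-3.29 and -2.37, and -3.14 and -2.14 without 3), with 34.4% of Rrm2 shared with another transcript. The helicase subunit Mcm5 fell from 8.60, 9.11 and 9.71 TPM to 0.694, 1.81 and 0.0769 TPM, a log2 fold change of -2.55 (limma adjusted p = 0.00854; -2.21 without 3). Its partner Mcm6 was at 22.3 to 24.4 TPM in UT and at 3.23, 5.83 and 17.3 TPM with LPS. Replicate 3 was close to the UT samples there, and Mcm6 did not pass (limma adjusted p = 0.118) unless that sample was left out (fall by 2.18, adjusted p = 0.00333).

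The promoters of Ccnb2 (chr9:70421505-70421804, minus strand) and Mki67 (chr7:135716330-135716629, minus strand) are shown because letters of the cell cycle homology region (CHR, TTTGAA), which the DREAM complex and B-Myb are known to bind, and of the CCAAT box were frequent in the list. Capitals mark both, and E2F letters (GCGGGAA), on either strand (GRCm38.p6).
Ccnb2: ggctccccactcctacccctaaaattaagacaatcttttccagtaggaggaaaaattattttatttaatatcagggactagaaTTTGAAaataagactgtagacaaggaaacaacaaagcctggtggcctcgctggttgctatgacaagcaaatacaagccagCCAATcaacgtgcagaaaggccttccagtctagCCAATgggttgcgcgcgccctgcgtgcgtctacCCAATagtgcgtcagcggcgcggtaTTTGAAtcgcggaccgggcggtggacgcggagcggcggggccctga
Mki67: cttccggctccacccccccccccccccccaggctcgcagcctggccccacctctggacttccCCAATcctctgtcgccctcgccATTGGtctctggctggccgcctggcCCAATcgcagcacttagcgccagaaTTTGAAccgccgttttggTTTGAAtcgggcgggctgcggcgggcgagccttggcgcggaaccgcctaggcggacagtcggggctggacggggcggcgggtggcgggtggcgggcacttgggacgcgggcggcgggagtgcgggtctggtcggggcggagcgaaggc
Each held 3 CCAAT boxes and 2 CHR matches. The CHR letters were in 27 of 40 promoters of the G2/M genes that fell (67.5%), compared with 4 of 29 of the G1/S genes that fell (13.8%), 12.6% of those of tested genes and 17.9% of all promoters. They were also in 34.1% of the promoters of the interferon-stimulated genes that rose and 24.6% of those of genes called higher, beside 14.3% of genes called lower. E2F letters were in 9 of 29 promoters of the G1/S genes that fell (31.0%), 3 of 40 of the G2/M genes (7.50%) and 8.20% of those tested. The CCAAT box was in 75.0% and 65.5% of the G2/M and G1/S promoters and in 37.1% of those tested. Without replicate 3, the CHR letters were in 67.4% and 11.4% of the promoters of the G2/M and G1/S genes that fell, 30.4% of those of the interferon-stimulated genes that rose, and 24.1% and 16.8% of those of genes called higher and lower. The E2F letters were then in 6.98% and 28.6%, and the CCAAT box in 76.7% and 62.9%, of the G2/M and G1/S promoters.

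The lists of metabolism and of the basic machinery of the cell are given beside the 2.40% of all tested genes that rose and the 7.99% that fell. These shares were 5.60% and 14.9% without replicate 3, and 3.90% and 4.46% with TMM. Of 20 glycolysis genes, 2 rose and none fell, or 8 and 1 without replicate 3 and 4 and none with TMM, and the median of 0.33 lay 0.92 above all genes. Pfkfb3, which makes the activator of phosphofructokinase, was at 0.758 to 0.977 TPM in UT and at 4.38, 7.90 and 18.2 TPM with LPS (log2 fold change 2.36, limma adjusted p = 0.0207), and Slc2a6 rose by 1.74. Replicate 3 was the highest sample at both, and both lost the call with TMM but kept it without replicate 3 (1.87 and 1.37). The 4 glycolysis genes that rose with TMM were others, Hk3, Pfkl, Tpi1 and Slc16a3, which are named here after their values were seen. Hexokinase 2 (Hk2) and the glucose transporter Slc2a1 did not pass with the 6 samples, but rose without replicate 3, by 0.93 and 1.11 (limma adjusted p = 0.0331 and 0.0206). Hif1a, the factor that drives glycolysis in activated macrophages, was at 9.01 to 10.9 TPM in UT and at 18, 41.5 and 31.3 TPM with LPS, and passed without replicate 3 (1.34, limma adjusted p = 0.0482) and with TMM. None of 62 cytosolic ribosomal protein genes, 43 nuclear respiratory chain genes or 33 proteasome genes passed in either direction, with medians of -0.92, -0.59 and -0.20 that became -0.50, 0.22 and 0.33 without replicate 3 and -0.10, 0.19 and 0.52 with TMM. Both turned the sign for the respiratory chain and the proteasome. LPS replicates 1 and 2 also differed from each other. After TMM, the mean change in replicates 1 to 3 was 1.09, 0.05 and -0.16 for the respiratory chain. It was 0.57, -0.65 and -0.12 for the ribosomal protein genes. With TMM, 1 proteasome gene (Psma2) rose. Without replicate 3, 11 ribosomal protein genes fell, and 2 respiratory chain and 7 proteasome genes rose. The ribosomal and respiratory chain counts were near the shares of all genes without replicate 3. With TMM and replicate 3 left out, 2 ribosomal protein genes fell. Among 21 sterol and lipid export genes, 1 rose and 1 fell, or 1 and 4 without replicate 3. The nuclear receptor Nr1h3 (LXR alpha) rose by 1.91 (2.32 without 3), and its target Mylip, which degrades the LDL receptor, fell by 2.77 (-2.27 without 3). Among 32 stress response genes, 4 rose and 3 fell without replicate 3, but 1 gene alone passed with all 6 samples, a fall of Phgdh (-1.5, and -1.43 without 3), the first enzyme of serine synthesis, 81.9% of whose sequence is shared with Gm9347. Heme oxygenase 1 (Hmox1) was at 210 to 221 TPM in UT and at 627, 744 and 123 TPM with LPS, and did not pass with the 6 samples, but rose without replicate 3 (1.67, limma adjusted p = 0.00175). The cystine transporter Slc7a11 was at 0.668 to 1.23 TPM in UT and at 2.64, 1.49 and 1.18 TPM with LPS, and did not pass with or without replicate 3 (limma adjusted p = 0.253 and 0.110). The ferritin light chain Ftl1, 95.3% of which is shared with another transcript, was at 5220 to 5240 TPM in UT and at 4350, 3480 and 3660 TPM with LPS, and did not pass (limma adjusted p = 0.304, and 0.0949 without 3). Among 11 antigen presentation and costimulation genes, none rose and 1 fell with all 6 samples, but 6 rose and 2 fell without replicate 3, and 5 rose and 1 fell with TMM. The 1 that fell was Cd83 (-2.33, and -1.90 without 3), a marker of mature dendritic cells. The costimulatory receptor Cd40 was at 0.835 to 1.49 TPM in UT and at 5.66, 7.61 and 1.56 TPM with LPS, and did not pass with the 6 samples, but rose without replicate 3 (1.86, limma adjusted p = 0.00485) and with TMM.

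A few genes outside the lists were among the largest changes. Plac8 (chromosome 5, 100701591 to 100720111), a small cysteine-rich protein of myeloid cells, was at 0.502, 0.423 and 0.340 TPM in UT and at 152, 76.7 and 13.4 TPM with LPS (log2 fold change 5.29, limma adjusted p = 0.00588; 6.26 without 3). Bcl2a1a, an anti-apoptotic gene whose whole sequence is shared with Bcl2a1b, rose by 4.87 (4.48 without 3), and Gm15056, listed at 0 in all UT samples, was at 68.5, 35.0 and 16.8 TPM with LPS and passed with and without replicate 3 (limma adjusted p = 0.00234 and 0.000483). Among the falls, S100a4, a calcium-binding protein of motile cells, went from 1490, 1330 and 1420 TPM to 162, 67.3 and 8.63 TPM, a log2 fold change of -4.89 (limma adjusted p = 0.0135; -3.74 without 3). It shares 50.5% of its sequence with the overlapping Gm42674, which fell by 3.76 and lost the call without replicate 3 (limma adjusted p = 0.0903) and with TMM. Pcp4l1 (-5.31, and -4.57 without 3), the growth factor binding protein Igfbp4 (-4.59 and -4.02), the pentraxin Nptx1 (-4.49 and -4.41), the LIM protein Crip1 (-4.41 and -3.93) and the prostaglandin-degrading enzyme Hpgd (-3.93 and -3.83) fell as well. Outside the protein-coding genes, the largest rises were in Gm8953 (5.12, and 4.75 without 3), Gm13822 (4.59 and 5.34) and Gm48412 (4.53 and 4.07). The largest falls were in ENSMUSG00002076012 (-4.54 both ways), Gm15513 (-4.52 and -4.27) and Gm46223 (-4.30 and -4.40). Gm8953 and Gm46223 share 96.3% and 99.7% of their sequence with another transcript. Of these, only Gm46223 lost the call with TMM.

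Markers of other cell types were measured in the same samples. Without Ccl5, the 16 other T and NK cell markers summed to 1.14 to 1.80 TPM in UT and to 0.780 to 1.09 TPM with LPS, and Cd3e was at 0 in 5 of 6 samples. Without Bst2, the 14 other dendritic cell markers summed to 42.0 to 44.8 TPM and to 9.71 to 23.6 TPM, with Flt3 at 0.0625 TPM at most. In that list, Itgax (-2.17, and -1.95 without 3), Cadm1 (-2.11 and -1.66) and Batf3 (-0.89 and -0.79) fell, of which Batf3 lost the call with TMM. The 13 B cell markers summed to 111, 128 and 136 TPM in UT and to 46.6, 45.5 and 30.9 TPM with LPS, and Ighm, the heavy chain of IgM, fell from 42.8, 37.3 and 36.3 TPM to 5.69, 5.58 and 0.520 TPM, by 3.29 (limma adjusted p = 0.0138; -2.58 without 3). The 15 neutrophil markers summed to 260, 188 and 199 TPM in UT and to 534, 272 and 142 TPM with LPS. Elastase (Elane) and Mpo were at or under 0.945 TPM, S100a8 was at 37.5 to 73.1 TPM in UT and at 165, 33.2 and 8.43 TPM with LPS, and the granule protein gene Ngp (26.3, 32.3 and 24.1 TPM in UT and 4.92, 2.21 and 9.90 TPM with LPS; -2.26, and -2.70 without 3) and Ltf (-0.80 both ways) fell but lost the call with TMM. The 11 erythroid markers summed to 5.77 to 9.78 TPM in UT and to 38.9, 7.13 and 1.88 TPM with LPS, the 12 fibroblast markers to 14.2 to 16.4 and 13.2 to 22.4 TPM, and the 6 mast cell and basophil markers to 0.469 to 1.88 TPM overall. The part of these cells in the results was not tested.

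The cGAS-/- samples give the same treatment in other samples of the series. In them, 1330 of the 8926 genes rose (14.9%) and 3537 fell (39.6%) with LPS. Of the 214 genes that rose in WT, 192 (89.7%) rose there too, which is 14.4% of the cGAS-/- rises. Of the 713 that fell in WT, 585 (82.0%) also fell, which is 16.5% of the cGAS-/- falls. Without WT LPS replicate 3, 437 of 500 rises (87.4%) and 1110 of 1331 falls (83.4%) were found there too, or 32.9% and 31.4% of those of cGAS-/-. Within WT, the LPS samples varied more than the UT samples, with limma sample weights of 0.673, 0.327 and 0.0647 against 3.54 to 4.81, so the number of genes that pass is not comparable between the genotypes. The difference of the LPS effect between genotypes passed for 108 genes (1.21%), or for 544 (6.09%) without replicate 3 and 155 (1.74%) with TMM (limma, all 12 samples).

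Plac8 and Marco are given as the largest differences among the named genes that passed with the 12 samples. Plac8 was at 0.114 to 0.343 TPM in UT and at 1.61, 1.09 and 1.38 TPM with LPS in cGAS-/- cells, against 152, 76.7 and 13.4 TPM with LPS in WT cells, and the LPS effect was 4.32 higher in WT on the log2 scale (limma adjusted p = 0.0424, standard error 0.88), or 5.30 without replicate 3. Marco was at 0.563 to 1.33 TPM in UT and at 265, 265 and 270 TPM with LPS in cGAS-/- cells, against 9.75, 11.6 and 15.7 TPM with LPS in WT cells, and the effect was -4.01 in WT relative to cGAS-/- (limma adjusted p = 0.000414, standard error 0.34), or -4.19 without replicate 3. By contrast, the chemokine Ccl5 rose by 8.36 in WT and 8.24 in cGAS-/-, Cxcl10 by 5.97 and 5.13, Isg15 by 5.13 and 5.82, and Atp6v0d2 changed by -5.37 and -5.36, and none of these differences passed with the 12 samples. Without WT LPS replicate 3, the difference passed for Cxcl10 (1.00 higher in WT, limma adjusted p = 0.0103) but not for Ccl5 (0.50), Isg15 (0.20) or Atp6v0d2 (0.47).

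**Figure D5:**
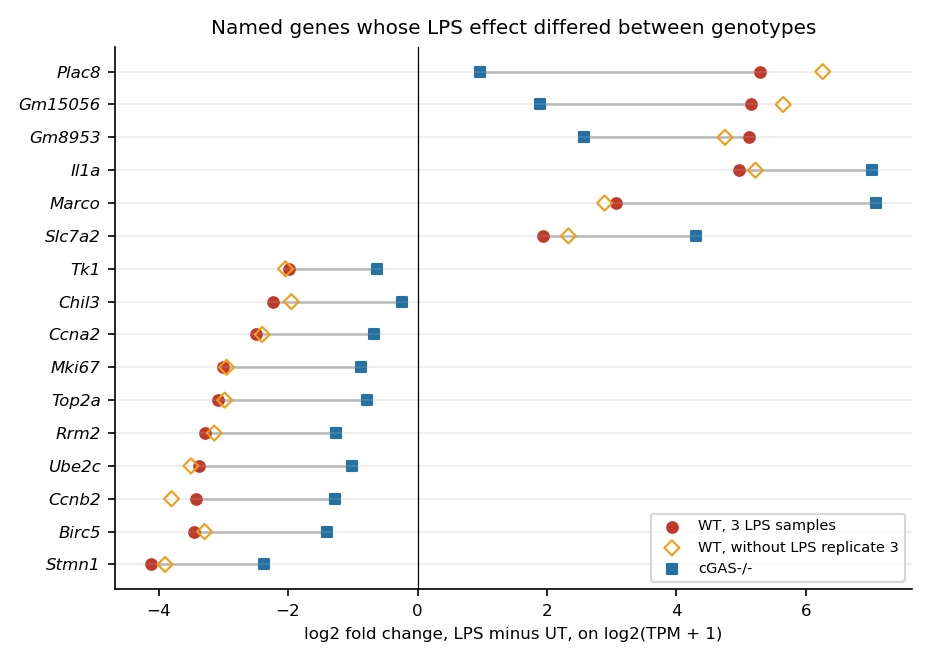
Log2 fold change (LPS minus UT, on log2(TPM + 1)) in WT with 3 LPS samples (circles), in WT without LPS replicate 3 (diamonds) and in cGAS-/- (squares), for the 16 named genes whose LPS effect differed between genotypes. Plac8 is at 5.29, 6.26 and 0.97, Marco at 3.06, 2.89 and 7.08, and Mki67 at -3.01, -2.95 and -0.87.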

How the data were processed

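RNA of 12 macrophage samples was sequenced. Per the labels and methods, the authors' tools were fastp, STAR, kallisto and the GRCm39 build (versions not given in the sources used here), with edgeR and limma for testing. The unit of the deposited values, TPM meaned over each symbol's transcripts, is an inference, since column totals differ between samples. Read depth is unknown, and no counting interval is given. Of 38739 symbols, 36572 matched GENCODE vM39 by symbol or ID, and 90.3% of the protein-coding genes of chromosomes 1 to 12 are listed.

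The 6 WT samples were fitted with limma 3.58.1 in R 4.3.3 on log2(TPM + 1), with a mean per group and a mean-variance trend, for genes at 1 TPM or more in at least 3 samples. The difference between genotypes used all 12 samples with 1 shared spread. The fit was tested on simulated data. TMM factors were computed as an unweighted trimmed mean of log ratios. Shared sequence is the percent of a gene's longest GENCODE transcript that blastn 2.17.0 matched to transcripts of the 1 other gene with most in common. Replicate numbers did not pair the samples (correlations of deviations 0.0264, 0.0364 and -0.0409).

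Named genes were the 15 largest protein-coding rises and falls with adjusted p under 0.05 and no overlap, the 3 largest of each among other genes, up to 4 genes a direction in each list, and a set of genes of the LPS response named whatever their values. A few genes that this rule takes are not reported here. Members and lists were chosen with earlier results of these data known. Promoters are from RefSeq (GRCm38.p6). Results were recomputed with a pseudocount of 0.1 or 5, without a filter, with a filter of 5 TPM, with TMM, quantile normalization, all 12 samples, a replicate block, sample weights, protein-coding genes only, and each sample left out in turn. TMM with LPS replicate 3 left out was added after seeing the data.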

Additional observations from a re-analysis of the deposited data

Results flagged for a closer look

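For 16 of the named genes, the LPS effect in WT cells differed from that in cGAS-/- cells by limma's interaction term over all 12 samples (adjusted p under 0.05). All 16 also passed without WT LPS replicate 3, and 12 passed with TMM. Differences are given as the log2 fold change in WT minus that in cGAS-/-. The fit has 1 spread for all groups, although the sample weights of the WT LPS replicates were 0.0647 to 0.673 and those of the WT UT samples 3.54 to 4.81.

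Among the genes of cell division, the fall was deeper in WT. The difference was -1.74 for Stmn1, -2.05 for Birc5, -2.15 for Ccnb2, -2.38 for Ube2c, -2.31 for Top2a, -2.14 for Mki67, -1.83 for Ccna2, -2.03 for Rrm2 and -1.38 for Tk1. These genes started from a lower level in cGAS-/- UT cells. Mki67, for example, was at 12.3 to 13.3 TPM in WT UT and at 1.88 to 2.51 TPM in cGAS-/- UT samples, and at 0.555 to 0.937 and 0.522 to 0.906 TPM with LPS. Top2a was at 9.15 to 10.6 and 1.40 to 1.85 TPM in UT and at 0.107 to 0.510 and 0.534 to 0.599 TPM with LPS. On log2(TPM + 1), a low UT level limits how far a gene can fall. Ccna2 was at 5.31 to 5.85 TPM in WT UT but at 0.528 to 0.912 TPM in cGAS-/- UT samples. For these genes, a deeper fall in WT therefore cannot be told apart from the higher WT level in UT. With TMM, Ccnb2 (adjusted p = 0.285) and Tk1 (0.176) did not pass in the limma fit.

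Among the genes that rose, the effect was smaller in WT for Il1a (-2.05), Marco (-4.01) and Slc7a2 (-2.37). Il1a was at 41.4 to 84.9 TPM in WT LPS and at 205 to 279 TPM in cGAS-/- LPS samples, and Slc7a2 at 1.88 to 7.55 and 30.4 to 35.8 TPM. It was larger in WT for Plac8 (4.32), Gm15056 (3.25) and Gm8953 (2.55), the last of which shares 96.3% of its sequence. Chil3 fell more in WT (-2.0), from 4.20 to 7.33 TPM in WT UT against 0.836 to 1.26 TPM in cGAS-/- UT samples. The limit that a low UT level sets to a fall applies to Chil3 as well. With TMM, Gm8953 (limma adjusted p = 0.0751) and Chil3 (0.0701) did not pass.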

How the results depend on the processing

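Of the 108 named genes that passed, none changed sign under the 17 alternatives, and 48 passed under all that tested them. TMM lost 17 calls, the pseudocount of 0.1 lost 29, no filter lost 58, and leaving out WT UT replicates 1, 2 or 3 lost 39, 39 and 41. Without WT LPS replicate 3, 1 call was lost, and 19 of the 34 named genes that had not passed did so. The number of genes called higher (151) was 86 with a pseudocount of 5, 64 with no filter, 235 with TMM, 276 with TMM and WT LPS replicate 3 left out (chosen after seeing the data), and 80 to 195 with 1 sample left out. The number called lower (283) was 75, 108, 103 and 121 in the same order, 126 with quantile normalization, and 134 to 511 with 1 sample left out. Genes that rose (214) numbered 67 with no filter, 348 with TMM, 398 with quantile normalization, 452 with all 12 samples, 340 with sample weights, 952 with TMM and replicate 3 left out, and 82 to 500 with 1 sample left out. Genes that fell (713) numbered 281 with a pseudocount of 0.1, 122 with no filter, 330 with the filter of 5 TPM, 398 with TMM, 2551 with all 12 samples, 1152 with sample weights, and 228 to 2123 with 1 sample left out. Among the fits with 1 sample left out, the lowest counts came without a UT sample and the most falls without LPS replicate 2, and the cause was not tested. Named genes whose effect differed between genotypes numbered 16, 22 with TMM and 55 without WT LPS replicate 3. Sign changes were seen only among named genes that had not passed. With TMM, C1qa became 0.47, Ftl1 0.40, Nfkb1 0.28 and Cgas 0.45. With quantile normalization Nfkb1 became 0.10, Cgas 0.43 and Lyz2 -0.03, and with sample weights C1qa became 0.03. With TMM and replicate 3 left out, Tlr4 became 0.07, Jun 0.09, C1qa 0.57, C1qb 0.20, Ftl1 0.03 and Nfkb1 0.32. With 1 sample left out, Hk2 lay between -0.11 and 0.93, C1qa between -0.64 and 0.11, Junb between -0.16 and 0.97, Ly96 between -0.25 and 0.82, Spi1 between -0.24 and 0.71, Cgas between -0.36 and 0.12, and Lyz2 between -0.02 and 0.35.

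The replicate block gave 174 genes called higher, 382 lower, 291 that rose and 1066 that fell. The numbers did not pair the samples, so the block is only an alternative, and 2 of the 108 calls were lost under it. With the filter of 5 TPM, the erythroid and fibroblast marker lists had no member left. Depth is unknown, so which absent rises are a limit of depth cannot be said.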
